A study of Mus musculus with 8 samples.

Results

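The RNA of mouse embryonic stem (ES) cells labelled as *Zbtb24* knockout was compared with that of wild-type ES cells in libraries made from 100 cells each. All 4 libraries of 100 cells were used out of 8 in the series, and a gene entered the comparison when it had at least 10 counts in at least 1 of them. That rule kept 15989 genes of the 16816 that reach the same count in the whole series. ES cells are derived from the early embryo and can give rise to every tissue of the body. The cells were of the J1 line from 129SV mice and grew on gelatin in medium with serum, with no feeder cells. The labels give the WT libraries the genotype *Zbtb24* 2lox/+, in which 1 allele carries loxP sites, and the KO libraries the genotype 1lox/1lox. Each library started from about 1 ng of RNA in lysed cells, without RNA isolation. The RNA was copied with the SMARTer Ultra Low RNA Kit v3, amplified by 18 cycles of PCR and built into a library with the Nextera kit. The other 4 libraries came from 1000 cells (about 10 ng of RNA) with 10 cycles, and serve below as a second look at the same genotypes, since the 100-cell comparison used none of them. The study describes clones of each genotype, but which clone gave which library is not stated, nor whether a clone was sequenced at both inputs.

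ZBTB24 is a zinc finger protein that binds DNA. Loss of it causes a form of immunodeficiency, centromeric instability and facial anomalies (ICF) syndrome, in which DNA repeats near centromeres lose methylation and immunoglobulins are low. The other ICF genes encode DNMT3B, a de novo DNA methyltransferase, CDCA7, and the chromatin remodeler HELLS, which works together with CDCA7. In ES cells ZBTB24 is known as an activator of *Cdca7*, bound at its promoter, so that the ICF genes form a chain from a transcription factor to the methylation of repeats.

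Depth was similar in the KO libraries (13757148 and 13621455 counts) and one of the WT libraries (13602460), and lower in the other WT library (9666985). The replicates were not equally close. Relative to sampling noise, the chi-square per gene between replicates was 1.99 for KO and 17.6 for WT at 100 cells, against 3.28 and 3.13 at 1000 cells. Among genes with 20 to 50 summed counts it was 1.15 for KO, near the value of 1 that sampling noise alone gives, and 2.88 for WT. Only 1 gene had 10 or more counts in one KO library and 0 in the other, against 71 genes in the WT pair. The KO libraries still differed by more than the sampling noise, so they were kept as 2 replicates, and the counts of the main gene groups are given again with the KO pair summed to 1 library, a setting chosen after the data were seen. P-values measure the spread between these libraries, which may be technical.

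The count of *Zbtb24* itself does not check the labels. It was 532 and 494 in the KO libraries and 197 and 269 in the WT libraries, a level of 38.5 and 36.4 cpm (counts scaled to a common library size) against 19.8 and 20.3 cpm. It was thus higher in both KO libraries, with a log2 ratio of 0.90 (SE 0.13, adjusted p = 0.0011 by the quasi-likelihood test of edgeR, as for all adjusted p-values below). At 1000 cells the log2 ratio was 1.37. The gene lies at chr10:41450383-41465574 (GRCm38, plus strand), and its count is the sum over all of its exons, deleted or not, so that transcripts of the 1lox allele that lack the deleted part are counted too. KO and WT below therefore stand for the libraries labelled KO and labelled WT.

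The list of genes linked to ZBTB24 holds *Axin2*, *Camkmt*, *Cdc40*, *Cdca7*, *Ostc*, *Rnf169* and *Taf6*, which earlier work links to ZBTB24 as bound or dependent genes. Of these 7 genes, 6 were called lower in KO and 0 higher, with a median log2 ratio of -1.46. Over all tested genes, 2928 (18.3%) were called higher and 2835 (17.7%) lower, and with the KO pair summed to 1 library 1338 and 1137. The members had been chosen with results of these data known, so the count describes them and is no independent evidence of direction. The count was 6 lower with the KO pair summed as well.

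The promoters of 4 of these genes hold the letters CAGGACCT, which belong to the motif known for ZBTB24, and are shown for that reason. Each window runs from 250 bases before to 50 bases after the start of the gene in RefSeq (GRCm38.p6), is written 5′ to 3′ on the strand of the gene, and has the motif in capitals on either strand, so that AGGTCCTG is the same motif read on the other strand. Distances are counted from the start, with the first base of the motif negative when it lies before it.
*Cdca7*, chr2:72475969-72476268, plus strand, motif at -89: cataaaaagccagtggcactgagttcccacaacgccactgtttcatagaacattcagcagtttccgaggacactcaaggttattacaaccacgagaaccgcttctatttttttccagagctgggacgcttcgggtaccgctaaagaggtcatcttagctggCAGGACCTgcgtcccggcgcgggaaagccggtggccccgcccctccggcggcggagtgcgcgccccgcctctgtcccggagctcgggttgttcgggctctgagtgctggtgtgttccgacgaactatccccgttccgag
*Cdc40*, chr10:40883094-40883393, minus strand, motif at -161 and 2: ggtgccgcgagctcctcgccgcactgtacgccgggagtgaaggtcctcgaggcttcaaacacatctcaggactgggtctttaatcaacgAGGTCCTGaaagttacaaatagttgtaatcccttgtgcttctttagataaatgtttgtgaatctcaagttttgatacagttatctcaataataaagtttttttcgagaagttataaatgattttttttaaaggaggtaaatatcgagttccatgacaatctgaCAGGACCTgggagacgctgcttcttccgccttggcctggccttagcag
*Taf6*, chr5:138187177-138187476, minus strand, motif at -180 and -14: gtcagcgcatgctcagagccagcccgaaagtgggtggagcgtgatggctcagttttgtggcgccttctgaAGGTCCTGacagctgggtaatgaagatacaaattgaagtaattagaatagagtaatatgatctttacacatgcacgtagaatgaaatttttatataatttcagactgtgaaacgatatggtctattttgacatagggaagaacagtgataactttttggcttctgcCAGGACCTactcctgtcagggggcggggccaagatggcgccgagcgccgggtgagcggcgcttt
*Camkmt*, chr17:85090376-85090675, plus strand, motif at 16 and 41: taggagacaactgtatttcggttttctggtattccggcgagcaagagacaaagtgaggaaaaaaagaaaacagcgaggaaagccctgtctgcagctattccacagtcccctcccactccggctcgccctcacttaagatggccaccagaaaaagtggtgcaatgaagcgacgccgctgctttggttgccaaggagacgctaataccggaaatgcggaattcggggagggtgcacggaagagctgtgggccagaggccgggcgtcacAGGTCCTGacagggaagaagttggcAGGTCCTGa

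The windows of *Zbtb24*, *Dnmt3b*, *Hells*, *Rnf169* and *Axin2* did not hold these letters, *Ostc* had no window, and a second window of *Taf6* from another start did not hold them. Of 32851 promoter windows, 653 (1.99%) hold the motif. Of 258 tested genes with it, 17.4% were called higher and 19.4% lower, beside 19.2% and 17.8% of all 11428 tested genes with a window. A match of these letters describes the window and is not a binding site.

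*Cdca7* had 58.0 and 63.2 cpm in the KO libraries and 167 and 167 cpm in the WT libraries. Every KO value lay below every WT value, with a log2 ratio of -1.46 (SE 0.11, adjusted p = 3.9e-05), and the ratio at 1000 cells was -1.74. *Ostc*, which encodes a subunit of the oligosaccharyltransferase that glycosylates proteins in the endoplasmic reticulum, had 96.1 and 88.1 cpm in KO against 295 and 350.0 cpm in WT (log2 ratio -1.81, SE 0.12, adjusted p = 2.59e-05). *Cdc40*, a splicing factor of the catalytic steps, had 20 and 20.8 cpm against 49.4 and 55.2 cpm (log2 ratio -1.36, SE 0.13, adjusted p = 0.000147). *Taf6* encodes a subunit of the general transcription factor TFIID, and its level was 18.2 and 21.4 cpm in KO and 74.0 and 65.1 cpm in WT. Its log2 ratio was -1.81 (SE 0.14, adjusted p = 4.45e-05), but 26.5% of its exon bases overlap *Ap4m1* on the opposite strand, and counting ignored the strand.

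*Camkmt*, a methyltransferase that modifies calmodulin, was lower at 2.17 and 2.87 cpm against 6.75 and 5.96 cpm (log2 ratio -1.33, SE 0.27, adjusted p = 0.00558), a call lost without KO replicate 1 (adjusted p = 0.0899). *Axin2*, a negative regulator and target of Wnt signalling, was at 0.507 and 0.295 cpm in KO and 2.52 and 3.47 cpm in WT, which are low levels. Its log2 ratio was -2.88 (SE 0.49, adjusted p = 0.00231). *Rnf169*, a ubiquitin ligase of the response to DNA breaks, was the member not called, at 12.2 and 13.4 cpm against 20.5 and 15.7 cpm (log2 ratio -0.50, adjusted p = 0.0584), and its log2 ratio at 1000 cells was 0.05. Of the list, 6 genes were called with the same sign at both inputs.

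The other ICF genes were lower in KO as well. *Dnmt3b* had 84.9 and 84.2 cpm in KO and 216 and 214 cpm in WT (log2 ratio -1.35, SE 0.10, adjusted p = 4.17e-05). Its log2 ratio was -2.16 at 1000 cells, and the 2 ratios differed (adjusted p = 0.00104 for the interaction of genotype and input). Across all tested genes, the interaction was called for 2801 genes (17.5%). *Hells* fell by less, from 604 and 550.0 cpm in WT to 453 and 431 cpm in KO (log2 ratio -0.38, SE 0.11, adjusted p = 0.0205). That call was lost in 3 alternative settings of the fit, the KO pair summed to 1 library among them.

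**Figure D1:**
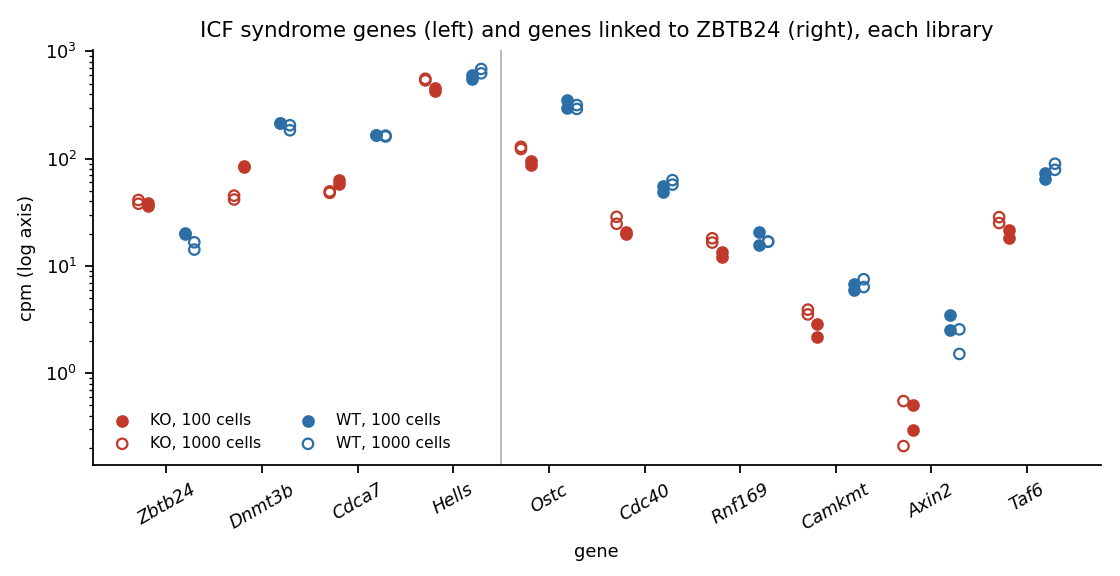
Level of each ICF gene (left of the line) and of 6 further genes linked to ZBTB24 (right) in every library, in cpm on a log axis. Red points are KO and blue points WT, filled at 100 cells and open at 1000 cells. Zbtb24 itself lies higher in KO, at 38.5 and 36.4 cpm, while Cdca7, Dnmt3b, Ostc, Cdc40, Camkmt, Axin2 and Taf6 lie lower in KO at both inputs.

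Among 21 writers, readers and erasers of DNA methylation, 5 were called lower and 3 higher (median log2 ratio 0.03), and 4 and 1 with the KO pair summed. The lower genes included the de novo enzymes. *Dnmt3a* had 105 and 109 cpm in KO and 229 and 218 cpm in WT (log2 ratio -1.06, adjusted p = 0.00015), and *Dnmt3l*, the cofactor that activates both enzymes, had 96.7 and 103 cpm against 254 and 257 cpm (log2 ratio -1.36, adjusted p = 4.28e-05). The maintenance pair did not share this direction. *Dnmt1* was at 134 and 139 cpm in KO and 95.5 and 118 cpm in WT (log2 ratio 0.35, adjusted p = 0.0487). Its call was lost in 6 alternative settings, among them those with either KO library left out. *Uhrf1*, the partner of *Dnmt1*, was not called (log2 ratio -0.09, adjusted p = 0.496). The dioxygenase *Tet1* was not called either (log2 ratio -0.25, adjusted p = 0.188).

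Transcripts of adult brain were present in both KO libraries of 100 cells and are described apart from the genes of ES cells. Neurons release transmitter through a shared synaptic machinery, oligodendrocytes wrap axons in myelin, and astrocytes clear glutamate and carry water channels, so each cell type has defining genes that ES cells hardly use. *Snap25*, a SNARE protein of synaptic vesicle fusion, had 81.2 and 75.2 cpm in the KO libraries and 1.81 and 2.04 cpm in the WT libraries (log2 ratio 5.33, SE 0.17, adjusted p = 3.6e-07). *Mbp*, a main protein of myelin, had 103 and 100.0 cpm against 1.51 and 1.21 cpm (log2 ratio 6.23, adjusted p = 3.14e-07). *Slc1a2*, the glutamate transporter of astrocytes, had 28.6 and 22.4 cpm against 0.302 and 0.226 cpm (log2 ratio 6.57, adjusted p = 4.82e-06). In bulk libraries a few cells or RNA of another tissue and a low level in every cell cannot be told apart.

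At 1000 cells the difference in the same genes was smaller. The log2 ratio of KO to WT there was 0.83 for *Snap25* (adjusted p = 0.0344) and 0.69 for *Mbp* (adjusted p = 0.13), and the interaction was called for both (adjusted p = 2.17e-06 for each). *Slc1a2* did not reach 10 counts in any library of 1000 cells. The 2 KO libraries of 100 cells held nearly the same amounts of these transcripts. With scaling factors taken without the brain and tissue lists, 5765 genes were called at 100 cells, against 5763 in the main fit. Any part of these transcripts in the other results beyond scaling was not tested.

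Of 58 neuronal and synaptic genes, 57 were tested at 100 cells, 43 were called higher and 3 lower, and the median log2 ratio was 2.27 (0.13 at 1000 cells). With the KO pair summed, 40 were higher and 0 lower. A gene that ES cells lack passed the count filter only through the KO libraries, so these counts describe the libraries and are no test. Members under 1 cpm in WT at 1000 cells summed to 142 and 133 cpm in KO against 6.31 and 6.40 cpm in WT. The sum over all members, 2437 and 2461 cpm against 2044 and 2179 cpm, was less apart, because a few members such as *Tubb3* and *Stmn2* are abundant in ES cells. *Stmn2*, which encodes a microtubule-binding protein of growing neurites, was lower in KO (log2 ratio -0.48, adjusted p = 0.00757), a call lost without a KO library (adjusted p up to 0.288). Genes used by both main classes of neurons were higher in KO. *Slc17a7*, the vesicular transporter of glutamate, had 15.3 and 14.8 cpm in KO against 2.72 and 1.43 cpm in WT. *Gad1*, which makes GABA, had 16.2 and 15.5 cpm against 5.34 and 6.11 cpm, so the WT libraries held it too. *Slc32a1* of the same list had 5 and 6 counts in KO and 0 in WT, below the count filter.

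Astrocyte genes gave 13 higher and 2 lower of 22 tested, and oligodendrocyte genes 13 higher and 2 lower of 20 tested of 23. These counts are no test either, since members could pass the count filter through the KO libraries alone. *Aqp4*, the water channel of astrocyte endfeet, had 2.75 and 2.51 cpm in KO and 0.0 and 0.0755 cpm in WT. Microglia were at the edge of detection. Only 4 of 12 microglia genes were tested, 3 were called higher, and the defining *Cx3cr1* had 6 and 4 counts in KO and 0 and 1 in WT.

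Markers of several brain regions were seen in KO. *Lamp5*, a cortical marker, had 52 and 50 counts in KO and 0 in both WT libraries, and was at least 14.1-fold higher against a floor of 3 counts per library. *Gabra6*, a receptor subunit of cerebellar granule cells, had 42 and 36 counts against 0 (at least 10.8-fold). *Ttr*, a carrier protein of the choroid plexus and liver, had 141 and 143 counts in KO and 0 in the WT libraries of either input (at least 39.3-fold). Other choroid plexus and ependymal genes were mixed: with *Ttr*, 2 were higher and 1 lower of 5 tested. *Kl* of that list had 2 and 6 counts in KO and 1 and 4 in WT, and *Foxj1* had 0 in both KO libraries. Of 14 tested cerebellum genes 9 were called higher and 0 lower, and of 10 striatum genes 7 and 0. Cortex and hippocampus genes gave 8 higher and 1 lower of 14. Thalamus, hypothalamus and midbrain genes were mixed, with 4 higher and 2 lower of 8 (median log2 ratio 0.37). Of all tested genes, 18.3% were higher and 17.7% lower. Of 16 cortex and hippocampus genes, 13 reached 10 counts in each KO library, against 3 and 4 in the WT libraries. Members could pass the count filter through the KO libraries alone, so these counts are no test. Genes of the hindbrain and spinal cord were nearly absent, with 13 of 16 below the count filter and 8 and 9 of the 16 at 0 in the KO libraries. Genes of immature neurons and neural progenitors gave 3 higher and 2 lower of 11 tested, with a median log2 ratio of -0.01.

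**Figure D2:**
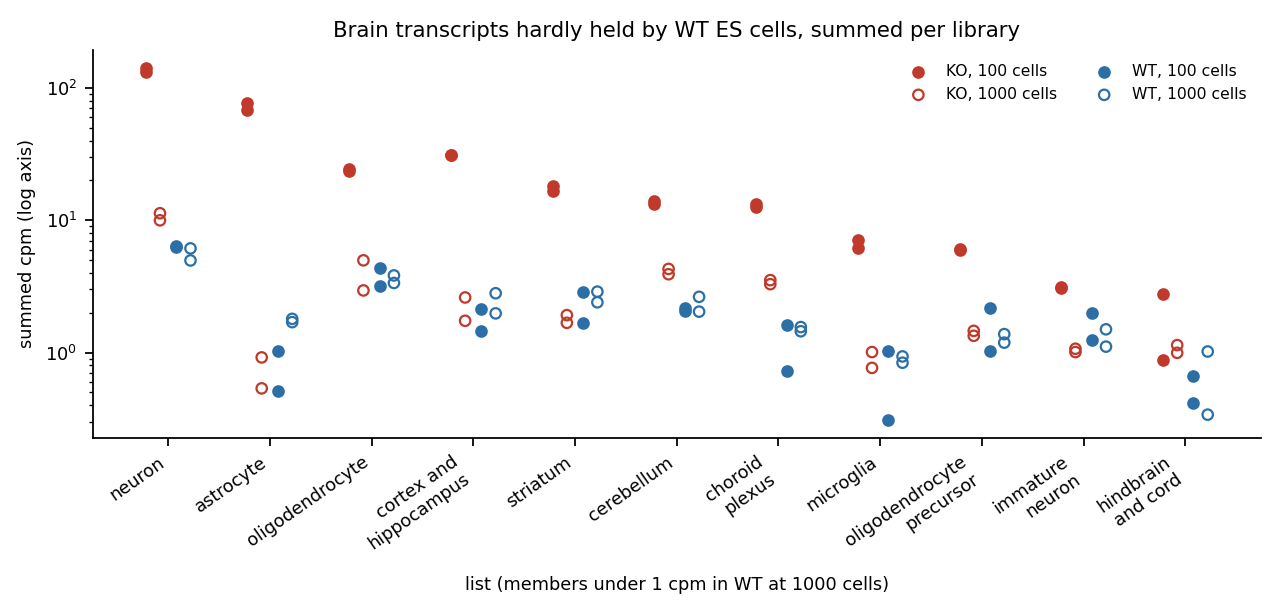
Sum of cpm per library over those members of each brain list that stayed under 1 cpm in WT at 1000 cells, on a log axis. Red is KO and blue is WT, filled at 100 cells and open at 1000 cells. The 2 KO libraries of 100 cells lie above all other libraries for the neuron list, at 142 and 133 cpm against 4.97 to 11.3 cpm, and for the astrocyte list, at 77.4 and 68.0 cpm against 0.515 to 1.80 cpm.

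In all, 41 genes had at least 1 cpm in both KO libraries of 100 cells and under 0.1 cpm in each of the other 6 libraries, of which 10 are members of the brain and tissue lists, while 0 genes met the same rule for the WT libraries of 100 cells. The first by level was *Cdr1* at 14.5 cpm, followed by *Gria2*, a subunit of AMPA-type glutamate receptors, at 11.8 cpm. *Cdr1* lies wholly within exons annotated on the opposite strand (*C230004F18Rik*), and the count cannot tell the 2 apart. Over 7 lists of other tissues few members passed the count filter. Liver genes gave 2 higher and 0 lower of 2 tested, fibroblast genes 2 and 0 of 5, and red cell genes 1 and 1 of 3. The 2 liver genes were *Ttr*, described above as a gene of the choroid plexus too, and *Apoa2*. *Apoa2* lies on chromosome 1, and its log2 ratio was 0.5 (0.56 at 1000 cells). Of 3 tested leukocyte genes and 3 tested skin, gut, kidney, pancreas and lung genes, 2 each were lower and 0 higher, as were 1 of 2 muscle genes and the 1 spermatid gene. *Hbb-bs*, an adult beta globin, was at 0.580 and 0.884 cpm in KO and 0 in WT, and the fibroblast genes *Mgp* and *Col1a2* were at 0.725 and 0.663 cpm and 0.652 and 1.18 cpm in KO. The calls of *Mgp* and *Col1a2* were lost in some alternatives (adjusted p up to 0.0714 and 0.0858).

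The level of a gene in WT at 1000 cells, which the comparison did not use, served to keep these transcripts apart from ES cell genes. Of 2571 tested genes under 1 cpm there, 779 (30.3%) were called higher and 142 (5.52%) lower at 100 cells. Of the higher ones, 346 had a log2 ratio above 4. Such a gene could pass the count filter through the KO libraries alone, so these counts are no test. Of 5125 genes at 1 to 10 cpm, 861 (16.8%) were higher and 750 (14.6%) lower. Of 8246 genes with at least 10 cpm that are in no brain or tissue list, 1274 (15.4%) were called higher and 1931 (23.4%) lower, with only 1 higher gene above a log2 ratio of 4. The balance of the 2 directions depended on which genes shared the scaling and the test. Scaled by TMM, fitted and adjusted alone, the same 8246 genes gave 1513 higher and 1553 lower. In the main fit, the median log2 ratio of all 8293 genes with at least 10 cpm was -0.08. The parts of scaling and testing in this shift were not tested apart.

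Among these ES cell genes, the gene with the largest log2 ratio was *Gm10800*, at 519 and 584 cpm in KO and 23.5 and 31.0 cpm in WT (log2 ratio 4.33, adjusted p = 7.4e-07). Of its 50-base windows, 27.4% are shared with other transcripts, and its log2 ratio at 1000 cells was 1.45, so its count is uncertain. *A2m*, a protease inhibitor, was at 139 and 137 cpm against 28.4 and 27.6 cpm (log2 ratio 2.30, SE 0.11, adjusted p = 4.82e-06). *Pgm1*, which interconverts glucose phosphates, rose from 31.1 and 60.3 cpm in WT to 207 and 210.0 cpm in KO (log2 ratio 2.18, adjusted p = 0.000274). *Bhlhe40*, a transcription factor induced by hypoxia, was at 113 and 115 cpm against 33.9 and 41.4 cpm (log2 ratio 1.6, adjusted p = 5.43e-05). The others of the 12 by rule were *Ddit3*, *Pck2*, *Ndrg4*, *Hk1*, *Cyfip2*, *Fxyd6*, *Ccdc181* and *Itm2c*, with log2 ratios from 1.65 to 2.25. Of these, *Ndrg4*, *Cyfip2*, *Hk1* and *Itm2c* are also expressed in adult brain, and their ratios at 1000 cells were smaller, with the interaction called (log2 ratios 0.61, 0.66, 0.66 and 0.75).

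The lower genes reached further. *Rhox5*, an X-linked homeobox gene whose promoters are known to be regulated by methylation, had 6.81 and 7.52 cpm in KO and 210.0 and 179 cpm in WT (log2 ratio -4.76, SE 0.15, adjusted p = 3.46e-07). *Zp3*, which encodes a glycoprotein of the egg coat, had 2.75 and 2.28 cpm against 26.3 and 26.4 cpm (log2 ratio -3.38), and *Klhl13*, a substrate adaptor of a ubiquitin ligase on the X chromosome, 80.3 and 72.7 cpm against 751 and 662 cpm (log2 ratio -3.21, adjusted p = 1.12e-06). *Gpx2*, a glutathione peroxidase, was at 3.19 and 2.95 cpm against 25.5 and 22.3 cpm (log2 ratio -2.95). *Cnpy4* was lower too (log2 ratio -2.95, adjusted p = 5.05e-05). It is the neighbour of *Taf6* on the other strand, and its window, chr5:138187285-138187584, overlaps that of *Taf6* and holds 1 of the same motifs. The rest of the 12 were *AI662270*, *Serpina3m*, *Nxf3*, *Gm26818*, *Ap1m2*, *Psors1c2* and *Fgfbp1*, from -4.67 to -3.02. All 12 were also lower at 1000 cells, with log2 ratios from -3.51 to -1.17.

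Naive pluripotency genes, which hold ES cells in their ground state, summed to 7707 and 7846 cpm in KO and 7785 and 8061 cpm in WT. Of 25 genes, 8 were called higher and 5 lower (median log2 ratio 0.03), and 3 and 4 with the KO pair summed. *Klf4* was at 149 and 145 cpm against 59.1 and 77.2 cpm (log2 ratio 1.11, adjusted p = 0.000468) and *Tbx3* at 37.2 and 34.0 cpm against 12.2 and 17.6 cpm (log2 ratio 1.24, adjusted p = 0.00104). *Nanog* and *Sox2* were higher by 0.57 and 0.70, with the call of *Nanog* lost without a KO library (adjusted p up to 0.113). *Pou5f1* was called higher (86.1 and 91.2 cpm against 54.2 and 75.4 cpm, log2 ratio 0.45, adjusted p = 0.0442). It was lower at 1000 cells (log2 ratio -0.40, interaction adjusted p = 0.00752). The call of *Pou5f1* was lost in 4 alternative settings, the KO pair summed to 1 library among them. *Dppa3*, which protects methylation in the early embryo, was lower at 56.6 and 55.9 cpm against 137 and 179 cpm (log2 ratio -1.49, adjusted p = 0.000123). *Dppa2* and *Dppa4*, which act as a pair in early embryo chromatin, were lower by log2 ratios of -0.79 and -1.09, and *Nr0b1*, an X-linked nuclear receptor, by -1.35.

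Formative, primed and trophoblast genes were called lower more often than higher. Of 14 tested formative and primed genes, 5 were called lower and 0 higher (median log2 ratio -0.39), and 3 and 0 with the KO pair summed. *Nodal*, a ligand of the TGF-beta family, had 14.9 and 15.9 cpm against 49.0 and 40.8 cpm (log2 ratio -1.54, adjusted p = 0.000149). *Foxd3* was lower by -2.86 at 0.652 and 0.147 cpm against 3.63 and 2.42 cpm. Of 15 tested trophoblast genes, 7 were lower and 3 higher (median log2 ratio -0.91), and 7 and 2 with the KO pair summed. *Plac1*, a placental gene on the X chromosome, had 0 counts in both KO libraries and was at least 10.4-fold lower, and *Peg10* had 5.58 and 5.75 cpm against 21.2 and 14.9 cpm (log2 ratio -1.67, adjusted p = 0.000645). The trophoblast and Rhox lists share *Rhox6* and *Rhox9*, which were lower by -2.04 and -2.88. Of 13 primitive endoderm genes 3 were lower and 1 higher, and of 8 mesendoderm genes 0 were lower and 1 higher. Of 19 genes of the 2-cell stage, 0 reached the count filter. At 1000 cells, formative and primed genes gave 4 lower and 3 higher (median log2 ratio -0.23). Trophoblast genes gave 2 lower and 3 higher there (median log2 ratio -0.04).

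Genes kept silent by DNA methylation in somatic cells, which include germline and imprinted genes, did not share 1 direction. Of 28 tested germline genes, 8 were called lower and 5 higher (median log2 ratio 0.03), and 7 and 2 with the KO pair summed. *Stra8*, an inducer of meiosis, rose from 6.44 and 12.2 cpm in WT to 30.8 and 31.7 cpm in KO (log2 ratio 1.72, adjusted p = 0.000888), and *Cyct*, the cytochrome c of the testis, fell from 32.2 and 41.6 cpm to 9.64 and 8.62 cpm (log2 ratio -2.02, adjusted p = 9.71e-05). Of 6 tested Rhox genes out of 32, 4 were lower and 0 higher. Among imprinted genes of the Dlk1-Dio3 domain, *Rian* was lower at 18.5 and 15.8 cpm against 64.2 and 42.3 cpm (log2 ratio -1.63, adjusted p = 0.000478). *Meg3*, from the same domain, was higher at 58.0 and 60.7 cpm against 34.7 and 40.2 cpm (log2 ratio 0.66, adjusted p = 0.00365), and lower at 1000 cells (log2 ratio -1.91, interaction adjusted p = 8.99e-07). Its call at 100 cells was lost without KO replicate 2 (adjusted p = 0.0682), and *Meg3* is also abundant in neurons. *Nap1l5*, an imprinted gene expressed in brain, behaved likewise, at 14.1 and 14.5 cpm against 1.61 and 1.21 cpm and with a log2 ratio of -1.0 at 1000 cells. The imprinted genes outside the domain gave 9 lower and 5 higher of 33, and 5 and 3 with the KO pair summed, among them *H19* (log2 ratio -1.28) and *Kcnq1ot1* (log2 ratio -1.14).

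Of 30 Polycomb genes, 8 were called lower and 1 higher (median log2 ratio -0.21), but none was called with the KO pair summed to 1 library. *Kdm2b*, which guides Polycomb complexes to CpG islands, had 29.6 and 28.7 cpm against 45.7 and 49.1 cpm (log2 ratio -0.70, adjusted p = 0.00262), and the methyltransferase *Ezh2* was not called (log2 ratio 0.21, adjusted p = 0.138). Of 21 genes of H3K9 methylation and heterochromatin, 7 were lower and 4 higher, and 1 and 1 with the KO pair summed. *Suv39h1*, which methylates H3K9 at pericentromeric repeats, was at 29.8 and 33.1 cpm against 18.4 and 15.8 cpm (log2 ratio 0.88, adjusted p = 0.00223), while *Atrx* was lower (log2 ratio -0.59), a call lost without a KO library (adjusted p up to 0.12), as was that of *Kdm2b* (up to 0.0666). Of 7 tested clustered protocadherin genes, none was called.

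The integrated stress response gave the largest share of higher genes among the signalling lists. In this response, kinases that sense amino acid shortage or unfolded proteins phosphorylate eIF2alpha, and the transcription factor ATF4 then raises genes of amino acid import, synthesis and tRNA charging. Of 39 genes, 28 (71.8%) were called higher and 3 (7.69%) lower, with a median log2 ratio of 0.77, and at 1000 cells 33 were higher and 3 lower (median log2 ratio 0.71). There, 22.3% of all tested genes were called higher and 21.7% lower. That split at 1000 cells, 3522 higher and 3419 lower, became 2758 and 4240 when libraries were scaled by their totals alone. With the KO pair summed to 1 library, 21 were called higher and 2 lower. *Ddit3*, the transcription factor CHOP, rose from 8.36 and 11.4 cpm to 46.1 and 48.9 cpm (log2 ratio 2.25, SE 0.17, adjusted p = 4.17e-05). *Atf3* was at 10.7 and 13.4 cpm against 3.73 and 1.21 cpm (log2 ratio 2.35, adjusted p = 0.00189), and *Trib3*, a pseudokinase that feeds back on ATF4, at 84.8 and 77.8 cpm against 26.8 and 38.3 cpm (log2 ratio 1.31).

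*Asns*, asparagine synthetase, was at 963 and 966 cpm in KO and 416 and 499 cpm in WT (log2 ratio 1.07, SE 0.12, adjusted p = 0.000313), and *Chac1*, which degrades glutathione, at 78.2 and 75.5 cpm against 30.9 and 32.1 cpm (log2 ratio 1.29, adjusted p = 0.000113). *Atf4* itself differed less at the RNA level (208 and 222 cpm against 150.0 and 179 cpm, log2 ratio 0.39, adjusted p = 0.028). The call of *Atf4* was lost in 4 alternative settings, the KO pair summed among them. The cystine transporter *Slc7a11*, also a target of ATF4, went the other way at 2.39 and 2.28 cpm against 6.55 and 5.43 cpm (log2 ratio -1.35, adjusted p = 0.00505), a call lost without KO replicate 2 (adjusted p = 0.0553). Of 18 genes of endoplasmic reticulum chaperones and their regulators, 0 were called higher and 3 lower, and 0 and 1 with the KO pair summed, and *Hspa5* was not called (log2 ratio -0.02, adjusted p = 0.903). *Xbp1* was lower (log2 ratio -0.71, adjusted p = 0.00126).

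Genes of glycolysis and the hypoxia response followed. Of 29 genes, 23 (79.3%) were called higher and 2 (6.90%) lower, with a median log2 ratio of 0.70 (0.57 at 1000 cells, 22 higher and 2 lower). With the KO pair summed to 1 library, 17 were higher and 2 lower. *Ldhb*, a subunit of lactate dehydrogenase, was at 1228 and 1267 cpm in KO and 394 and 506 cpm in WT (log2 ratio 1.47, SE 0.14, adjusted p = 0.000123). *Vegfa*, the growth factor of vessels induced by hypoxia, was at 34.9 and 33.8 cpm against 11.8 and 14.3 cpm (log2 ratio 1.39, adjusted p = 0.000291), and *Egln3*, an oxygen-sensing prolyl hydroxylase, at 64.3 and 65.1 cpm against 21.2 and 32.4 cpm (log2 ratio 1.26, adjusted p = 0.000919). The abundant *Pgk1* and *Ldha* had log2 ratios of 0.70 and 0.42, with the call of *Ldha* lost when either KO library was left out (adjusted p up to 0.413) and that of *Pgk1* without KO replicate 2 (0.0658). *Hk1*, the hexokinase that brain uses most, had the largest ratio of the list (1.87 at 100 and 0.66 at 1000 cells, interaction adjusted p = 0.00301). The hypoxia gene *Ankrd37*, on chromosome 8, fell instead, at 17.5 and 20.1 cpm against 32.7 and 49.7 cpm (log2 ratio -1.14, adjusted p = 0.00244).

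**Figure D3:**
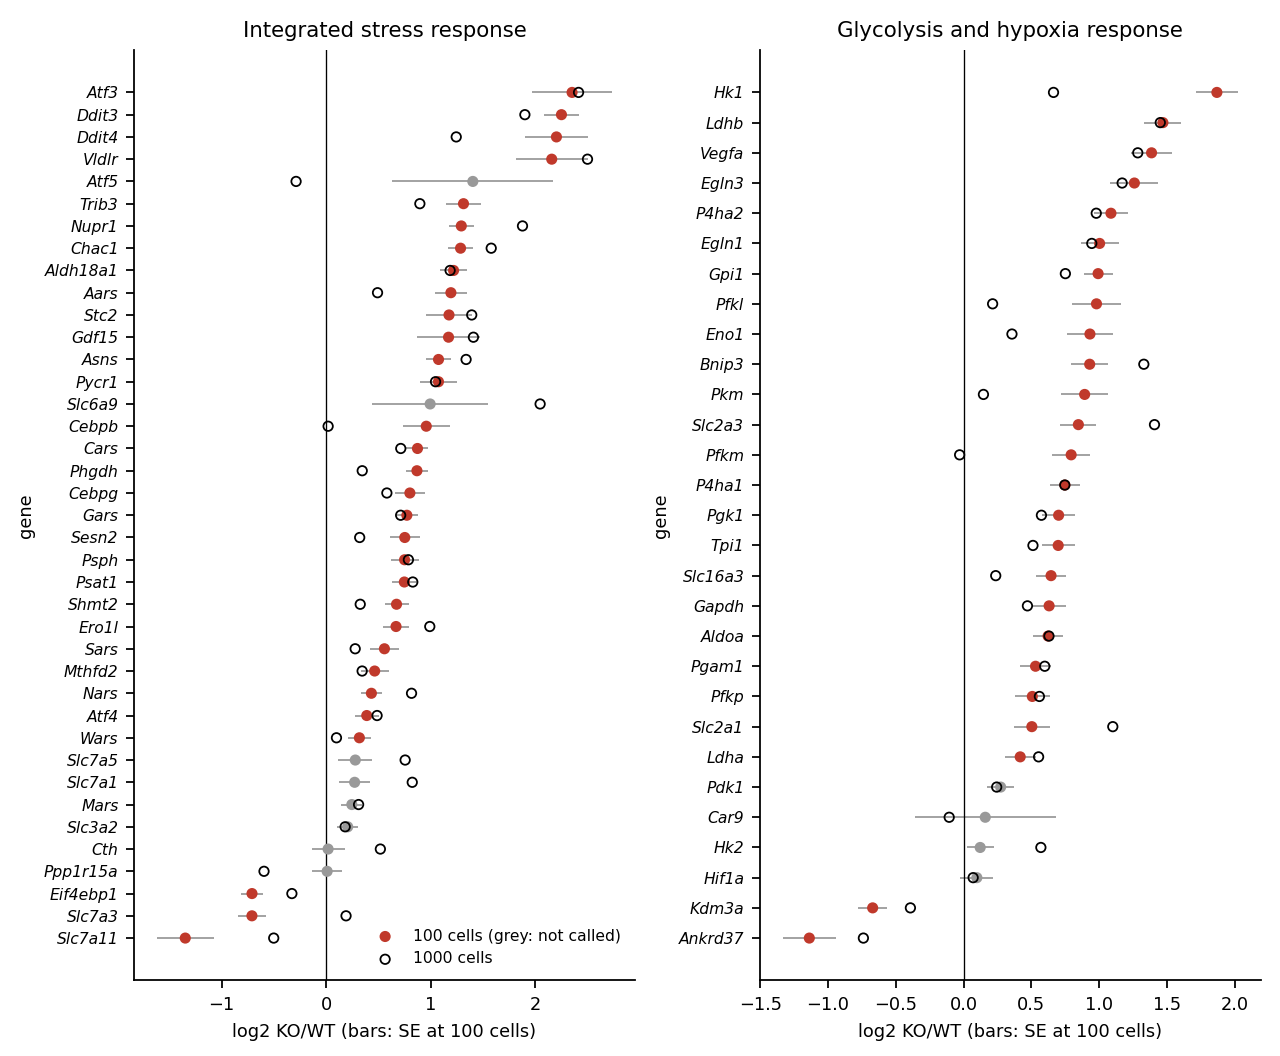
Log2 ratio of KO to WT for each tested gene of the integrated stress response (left, 39 genes) and of glycolysis and the hypoxia response (right, 29 genes). Filled points with bars are the ratio and its SE at 100 cells, red where called and grey where not, and open points are the ratio at 1000 cells. Most genes of both lists lie to the right of 0 at both inputs, with medians of 0.77 and 0.70 at 100 cells.

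BMP signalling in ES cells feeds the inhibitors of differentiation ID1 and ID3. The list of BMP and Nodal genes had 8 genes lower and 1 higher of 26, the higher one being *Lefty1* on chromosome 1. The ligand *Bmp4* was at 9.42 and 9.58 cpm in KO and 28.7 and 28.5 cpm in WT (log2 ratio -1.59, SE 0.15, adjusted p = 0.000139). *Id3* was lower too, at 34.0 and 34.2 cpm against 104 and 100.0 cpm (log2 ratio -1.58, adjusted p = 3.29e-05). *Id1* was lower by -1.22. Whether the 3 changes are linked was not tested. These 3 genes had nearly the same ratios at 1000 cells (log2 ratios -1.67, -1.03 and -1.52 for *Bmp4*, *Id1* and *Id3*). The BMP and Nodal counts were 8 and 1 with the KO pair summed too, and 11 lower and 6 or 7 higher without WT replicate 1 or 2.

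In the FGF-ERK pathway, 7 of 25 genes were called lower and 3 higher, and 3 and 0 with the KO pair summed. The receptor *Fgfr1* had 15.6 and 13.9 cpm against 38.7 and 26.5 cpm (log2 ratio -1.14, adjusted p = 0.00225), and the feedback phosphatases *Dusp4* and *Dusp6*, which ERK induces, were lower by -1.13 and -0.75, with the call of *Dusp4* lost in 2 alternatives (adjusted p up to 0.129). The ligand *Fgf4* was not called (log2 ratio -0.31, adjusted p = 0.0634). The shares of the FGF-ERK list, 28% lower and 12% higher, stand beside 17.7% and 18.3% of all tested genes. Of the ES cell genes with at least 10 cpm, 23.4% were lower and 15.4% higher. Of 19 immediate early genes, 5 were lower and 2 higher, and 3 and 2 with the KO pair summed, with *Myc* at 14.3 and 13.1 cpm against 48.5 and 45.4 cpm (log2 ratio -1.77, adjusted p = 4.55e-05). LIF signalling through STAT3, which maintains mouse ES cells, had 4 genes higher and 1 lower of 14, and 2 and 0 with the KO pair summed. Its feedback inhibitor *Socs3* was at 67.3 and 74.7 cpm against 30.4 and 38.3 cpm (log2 ratio 1.04, adjusted p = 0.000732), and *Stat3* was not called (log2 ratio -0.06, adjusted p = 0.705). Wnt pathway genes gave 5 higher and 2 lower of 28, the lower ones being *Axin2* and *Notum* (log2 ratio -0.78), both feedback inhibitors. The Wnt counts were 1 and 1 with the KO pair summed and 0 higher and 1 lower without KO replicate 1, and the call of *Notum* was lost when either KO library was left out (adjusted p up to 0.143).

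The p53 list differed between inputs. Of 26 genes, 12 were called lower and 5 higher at 100 cells (median log2 ratio -0.39; 6 lower and 2 higher with the KO pair summed), while at 1000 cells 4 were lower and 11 higher (median log2 ratio 0.07). The interaction was called for 8 of them, 7 toward lower at 100 cells. *Trp53* itself was at 1333 and 1344 cpm in KO against 1697 and 1649 cpm in WT (log2 ratio -0.32, adjusted p = 0.0419), and its log2 ratio at 1000 cells was 0.29. That call at 100 cells was lost in 7 alternatives (adjusted p up to 0.512). *Eda2r*, a death receptor induced by p53, had 17.2 and 17.4 cpm against 43.3 and 28.3 cpm (log2 ratio -1.04, adjusted p = 0.00366), with 0.13 at 1000 cells. *Cdkn1a*, the cell cycle inhibitor p21, was not called (log2 ratio -0.22, adjusted p = 0.265). The highest member, *Ddit4* (log2 ratio 2.20), also belongs to the integrated stress response list.

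Counts of several lists of basic cell functions depended on which WT library was used. Cytosolic ribosomal protein genes summed to 85984 and 90333 cpm in KO, and to 72034 and 91289 cpm in WT, so that the groups overlapped. Of 80 genes, 3 were called higher and 2 lower. Without WT replicate 1 the count was 5 higher and 38 lower, and without WT replicate 2 it was 64 higher and 3 lower. The nuclear genes of oxidative phosphorylation gave 9 higher and 10 lower of 76, and 15 and 32 or 40 and 17 when WT replicate 1 or 2 was left out. Mitochondrial ribosomal protein genes, with 24 lower and 3 higher of 76 (median log2 ratio -0.24), gave 58 and 31 lower, against 5 and 15 higher, without WT replicate 1 or 2, and 9 lower and 0 higher with the KO pair summed. Proteasome genes gave 11 lower and 3 higher of 39, 31 and 4 without WT replicate 1, 12 and 9 without WT replicate 2, and 3 and 0 with the KO pair summed. Among them, the inducible immunoproteasome subunits *Psmb10* and *Psmb9* were lower, with *Psmb10*, on chromosome 8, at 65.1 and 68.5 cpm against 144 and 147 cpm (log2 ratio -1.12, adjusted p = 0.000131) and *Psmb9* at 1.09 and 1.40 cpm against 4.53 and 4.30 cpm (log2 ratio -1.82).

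Cholesterol synthesis genes gave 6 lower (24%) and 0 higher of 25, and 3 and 0 with the KO pair summed. The lists of this paragraph stand beside 23.4% lower and 15.4% higher among ES cell genes with at least 10 cpm. The lower share of the cholesterol list is near that 23.4%. *Hmgcs1*, which encodes HMG-CoA synthase, an early enzyme of the pathway, was at 146 and 146 cpm against 260.0 and 288 cpm (log2 ratio -0.91, adjusted p = 0.000367). *Ebp*, an X-linked sterol isomerase, was at 22.2 and 25.1 cpm against 61.2 and 58.6 cpm (log2 ratio -1.34, adjusted p = 0.000146). Lysosome genes split into 10 lower and 6 higher of 22, and 4 and 3 with the KO pair summed. The membrane proteins *Lamp1* and *Lamp2* moved apart, *Lamp1* from 493 and 445 to 258 and 263 cpm (log2 ratio -0.85) and *Lamp2* from 46.6 and 42.5 to 99.3 and 93.2 cpm (log2 ratio 1.11), with the same signs at 1000 cells (log2 ratios -0.97 and 1.40). Heat shock genes gave 4 lower and 2 higher of 14, and 1 and 0 with the KO pair summed. Mitosis genes gave 4 higher and 1 lower of 25, and 2 and 0 with the KO pair summed. Splicing factors gave 8 higher and 5 lower of 34, but 11 and 16 without WT replicate 1, 19 and 9 without WT replicate 2, and 3 and 1 with the KO pair summed.

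**Figure D4:**
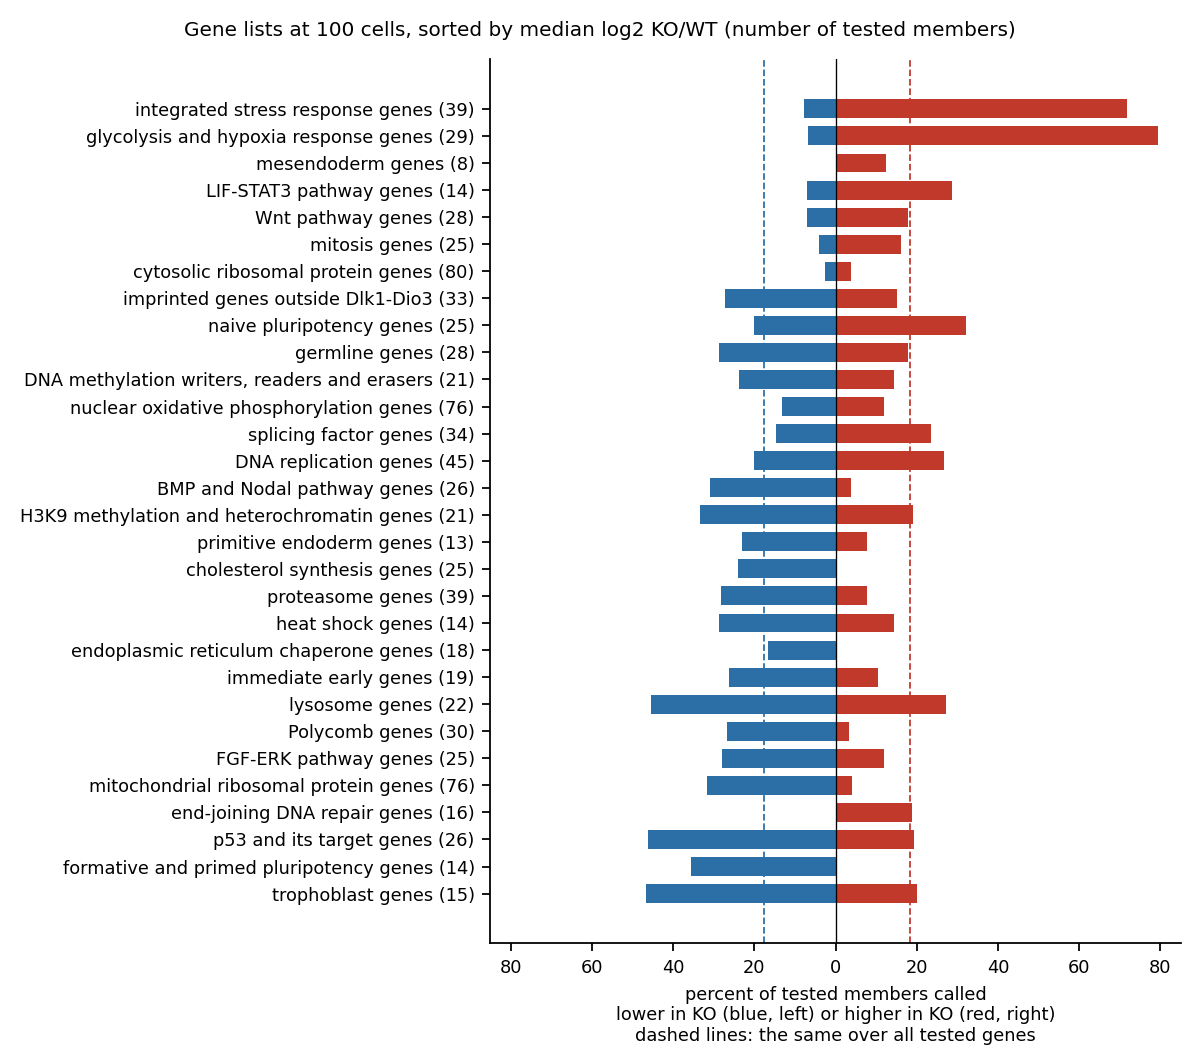
Percent of tested members called, for each ES cell, signalling, lineage and cell process list with 8 or more tested members, as lower in KO (blue, left) or higher in KO (red, right) at 100 cells. Lists are sorted by median log2 ratio and the number of tested members in brackets. Dashed lines mark the shares over all tested genes, 17.7% lower and 18.3% higher. The integrated stress response (71.8% higher) and the glycolysis and hypoxia list (79.3% higher) reach furthest to the right. Genes with at least 10 cpm in WT at 1000 cells and in no brain or tissue list gave 23.4% lower and 15.4% higher. Near that 23.4% lie the lower shares of primitive endoderm (23.1%), DNA methylation (23.8%), cholesterol (24%), immediate early (26.3%), Polycomb (26.7%) and imprinted genes (27.3%). So do those of FGF-ERK (28%), proteasome (28.2%), germline (28.6%) and heat shock genes (28.6%). BMP and Nodal genes reach 30.8% lower.

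The position of a gene moved with its direction. Among genes with at least 10 cpm in WT at 1000 cells, 253 of 477 on chromosome 1 (53%) were called higher and 21 (4.40%) lower, with a median log2 ratio of 0.42 (0.53 at 1000 cells). On chromosome 8 the direction was the opposite, with 195 of 473 (41.2%) called lower and 42 (8.88%) higher (median log2 ratio -0.29, and -0.28 at 1000 cells). The lower genes of chromosome 8 crowded into its first 60 Mb, where 109 of 146 (74.7%) were lower and 0 higher, with a median of -0.63, against 26.3% lower in the rest. Over the remaining chromosomes without Y, 13.5% were higher and 23.5% lower (median log2 ratio -0.09). The Y-linked *Ddx3y*, *Eif2s3y* and *Uty* were lower by -2.61, -1.75 and -1.62. *Ddx3y* was at 18.1 and 13.4 cpm in KO against 105 and 87.9 cpm in WT. The other of 4 listed Y-linked genes was not called (log2 ratio 0.48). Of 5 Y genes with at least 10 cpm in WT at 1000 cells, 4 were lower and 1 higher.

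Several list members lay on these chromosomes. Of the 51 tested list members on chromosome 1, 29 were called higher and 1 lower, and of the 42 on chromosome 8, 8 were higher and 18 lower, while 115 of 794 elsewhere were higher and 168 lower. All 6 tested oxidative phosphorylation genes on chromosome 1 were higher, such as *Sdhc* (135 and 134 cpm against 58.5 and 67.5 cpm, log2 ratio 1.09, adjusted p = 0.000224), against 3 of 67 off chromosomes 1 and 8. All 3 ribosomal protein genes called higher (*Rpl7*, *Rpl31* and *Rpl37a*) lie on chromosome 1 too. So did *Mcm6* and *Mcm3*, subunits of the replicative helicase (log2 ratios 1.06 and 0.61), and the repair genes *Parp1* and *Xrcc5* (0.76 and 0.60). Of these, the calls of *Rpl7*, *Rpl31*, *Rpl37a*, *Mcm3* and *Xrcc5* were lost in 1 to 3 alternatives each (adjusted p up to 0.13). The replication genes *Gins3* and *Gins4* (log2 ratios -0.55 and -0.70), *Lamp1*, *Fgfr1*, *Dusp4* and *Ankrd37* lie on chromosome 8, with the call of *Gins3* lost in 4 alternatives (adjusted p up to 0.276). Elsewhere, 25 of 34 stress response genes and 22 of 27 glycolysis and hypoxia genes were higher. These counts by chromosome are for 100 cells. At 1000 cells, 57 of 76 oxidative phosphorylation genes were higher and 2 lower on all chromosomes together. Of 80 ribosomal protein genes, 58 were higher and 5 lower there, beside 22.3% and 21.7% of all tested genes.

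**Figure D5:**
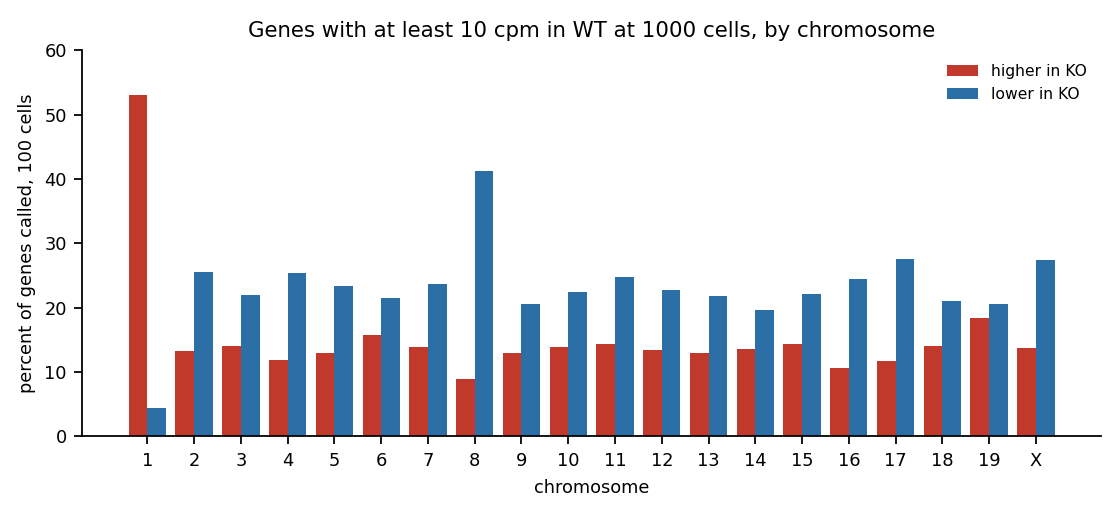
Percent of genes called higher (red) or lower (blue) in KO at 100 cells on each autosome and the X chromosome, among genes with at least 10 cpm in WT at 1000 cells. Chromosome 1 stands out with 53% higher and chromosome 8 with 41.2% lower, against 13.5% and 23.5% over the chromosomes other than 1, 8 and Y.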

How the data were processed

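RNA was measured in 8 libraries of mouse ES cells, 2 for each genotype and input, and read counts per gene were deposited by the authors as whole numbers that are not normalized. The labels and methods name CASAVA 1.8.2, Bowtie2 2.1.0 (removal of ribosomal RNA reads), TopHat2 2.0.10 and HTSeq 0.6.1 with GENCODE M4 on mm10. Counting ignored strand, dropped reads that map to several places. Gene names, positions and overlaps came from GENCODE M21 through the gene identifiers.

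Groups followed the labels. A gene that reached 10 counts in any of the 4 libraries of 100 cells was tested with edgeR 4.0.16 (R 4.3.3) by quasi-likelihood after TMM scaling, and called when the p adjusted after Benjamini and Hochberg did not exceed 0.05. Log2 ratios are KO over WT, and cpm are counts relative to the TMM-scaled library total, on the usual scale of edgeR. Sums of cpm over a list are instead relative to the library total without TMM. So are the cpm of genes seen only in the KO libraries of 100 cells. The same fit was made at 1000 cells, and the difference of the ratios was tested as an interaction over all 8 libraries. DESeq2 1.42.0, limma 3.58.1 and other settings were tried as alternatives.

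The gene lists and the members were chosen with earlier results of these data known. Genes were named by a rule: the ICF and ZBTB24-linked genes, up to 6 called genes of each list with the largest log2 ratios, up to 3 genes that define it, the 12 largest ratios in each direction among genes with at least 10 cpm in WT at 1000 cells that are in no brain or tissue list and do not overlap between KO and WT, and for brain and tissue lists up to 5 genes with the highest level in KO. *Cdr1* and *Gria2* were named after their values were seen. Some genes that the rule selects are not reported here. A fold against a group at 0 is a lower bound from a floor of 3 counts per library, and such floors cover counting error only. Replicate numbers did not pair the samples: deviations of same-numbered libraries correlated at 0.0713 at 100 cells and 0.0684 at 1000 cells.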

Additional observations from a re-analysis of the deposited data

Results flagged for a closer look

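Genes whose KO to WT ratio differed between 100 and 1000 cells, by the interaction of genotype and input in edgeR's quasi-likelihood test, are given here with the difference of the log2 ratios (100 minus 1000 cells). The 2 inputs also differ in PCR cycles, and the part of input, cycles and clones in these differences cannot be told apart.

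Among genes of brain, the difference was 5.59 for *Mbp*, 4.56 for *Snap25*, 2.75 for *Slc17a7* and 1.14 for *Gad1*. It was 6.51 for *Slc1a2*, which had under 10 counts in every library of 1000 cells. *Tubb3*, which ES cells express, differed by 0.55. Genes of other lists that brain also expresses followed with 4.39 for *Nap1l5*, 2.62 for *Meg3*, 1.42 for *Ndrg4*, 1.25 for *Hk1*, 1.17 for *Cyfip2* and 0.96 for *Itm2c*.

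Among genes lower in KO at both inputs, the ratio was further from 0 at 100 cells for *Rhox5* (-2.0), *Nxf3* (-1.92), *Cnpy4* (-1.72), *Ap1m2* (-1.59), *AI662270* (-1.52), *Gpx2* (-1.37), *Peg10* (-1.33) and *Zp3* (-0.83). Smaller differences of the same sign were found for *Klhl13* (-0.61), *Ebp* (-0.57), *Ostc* (-0.49), *Psmb10* (-0.48) and *Dppa4* (-0.42). *Dnmt3b* and *Notum* were less reduced at 100 than at 1000 cells (0.87 and 0.92).

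Further genes with opposite signs at the 2 inputs were *Pou5f1* (0.90), *Dnmt1* (0.55), *Eda2r* (-1.12), *Fgf4* (-0.58) and *Trp53* (-0.56). Higher genes whose ratio was smaller at 100 cells were *A2m* (-0.50) and *Nanog* (-0.50), and those whose ratio was larger were *Gm10800* (2.92) and *Ccdc181* (0.96).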

How the results depend on the processing

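Depth and 2 libraries per group limit these results, and the spread came mostly from the WT pair. The number of DEGs at 100 cells, 5763, ranged from 2293 to 9379 when 1 library was left out: 2293 and 2335 without KO replicate 1 or 2, and 9006 and 9379 without WT replicate 1 or 2. Members of the gene lists gave 339 calls, and 153 to 622 in the same settings. With the KO pair summed to 1 library, chosen after the data were seen, 2475 DEGs were called. Of the 5763 DEGs, 2617 had a log2 ratio above 1 in size. DESeq2 called 4230. The lone library left in a group was assumed to vary like the other group. The log2 ratio of the summed neuron list was 0.21, and 1.98 as the median of log2(cpm + 1), because a few abundant members lead the sum. A replicate block, which gave 6374 DEGs, rests on numbers that did not pair the samples. Of 118 named genes called, 94 kept the call in every alternative that gave a value, and 19 lost it with the KO pair summed. The genes *Hspa5*, *Stat3* and *Tubb3*, which were not called, changed sign. *Hspa5* was at 0.01 with 1 count in any library, 0.02 with 10 counts in every library, 0.03 in 1 fit of all 8 libraries, and ranged from -0.09 to 0.07 with 1 library left out. In those settings *Stat3* ranged from -0.14 to 0.03 and *Tubb3* from -0.2 to 0.11.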
